A study of Mus musculus with 8 samples.

Results

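Calcium handling in macrophages was described through the genes that release calcium from its store, refill the store and pump calcium away. The genes listed were 8 in number: Plcg2, Itpr1, Itpr2, Stim1, Atp2a2, Atp2a3, Atp2b1 and Itpkb. They were chosen by name, and their members are all probe sets that the platform annotation gives to 1 of these genes. This gave 15 of the 22690 probe sets, covering 6 genes, with 5 probe sets for Itpr2, 4 for Atp2a2, 2 each for Stim1 and Atp2a3, and 1 each for Plcg2 and Itpkb. Itpr1 and Atp2b1 were not analysed here, since the annotation table used lists no probe set for them.

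Bone marrow cells of C57BL/6 mice aged 6 to 8 weeks were grown for 7 days with the growth factor M-CSF, which yields macrophages. The wild-type groups were unstimulated cells (0 h), cells with 1 µg/ml of LPS, a component of bacterial outer membranes, for 6 h or 24 h, and cells with the same LPS plus the calcium chelator EGTA for 6 h or 24 h. EGTA was at 2 mM by the 24 h label, and the 6 h label names no concentration. Unstimulated cells were harvested 24 h after plating. The CD14-deficient groups, of strain Cd14-/- C57BL/6, were unstimulated or had LPS at 1 µg/ml for 6 h or 24 h. CD14 is the surface protein that binds LPS and passes it to the TLR4 receptor. There was 1 array for each of the 8 groups, no group had EGTA without LPS, and the labels do not say whether animals were pooled. The LPS of the wild-type samples is labelled smooth, while the CD14-deficient labels name LPS alone. By its title and design text, the series asked which LPS responses depend on calcium flux and on NFAT, a transcription factor switched on by calcium, as opposed to what CD14 loss or EGTA does in other ways.

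In this pathway a surface receptor activates phospholipase C, which cuts a membrane lipid into diacylglycerol and inositol trisphosphate (IP3). IP3 opens IP3 receptors in the endoplasmic reticulum, and calcium leaves this store for the cytosol. STIM proteins sense the emptied store and open ORAI channels in the plasma membrane. SERCA pumps return calcium to the store, PMCA pumps carry it out of the cell, and IP3 kinases turn IP3 into a more highly phosphorylated form. Raised calcium activates the phosphatase calcineurin, which frees NFAT to enter the nucleus. In myeloid cells PLCg2 is a main phospholipase C downstream of Syk-linked receptors.

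Values are intensities after quantile normalization of the 8 arrays. Values under 38.4, the 40th percentile of all values, count as at the floor. A probe set was compared between a pair of arrays if it exceeded 88.2, the median of all values, in at least 1 of them, and it was called different if the arrays differed at least 2-fold (a log2 difference of at least 1 in size). Since each group is 1 array, these differences have no replicate check and carry no p-value. Intensities are not set against each other between probe sets. Of the 15 member probe sets, 10 exceeded the median on at least 1 array and 5 on all 8 arrays, while 1 was at the floor on every array.

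Cd14 was at the floor in the 3 arrays labelled CD14-deficient and between 3849 and 12515 in the wild-type arrays. All 7 macrophage markers looked up exceeded the median of all values on at least 1 array, and their summed intensity differed between arrays by at most 1.24-fold. Markers of B cells, T cells, erythroid cells and dendritic cells were at the floor on all arrays (3, 3, 2 and 3 genes). Summed markers reached at most 107 for granulocytes, 82.7 for megakaryocytes and 241 for stromal cells, the last in wild type with LPS at 24 h. RNA integrity numbers ran from 9.3, in wild type with LPS at 6 h, to 9.7, and the cRNA yield from 31.4 µg, with EGTA at 24 h, to 76 µg, in wild type with LPS at 6 h. The part of these in the results was not tested.

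The sequences just before the transcription start are shown for Itpkb, the member with the largest LPS difference, and for Plcg2, the enzyme at the head of the pathway. They were read from RefSeq windows of build GRCm38.p6, which held 7 windows for 6 of the 8 listed genes, and none for Itpr1 or Atp2a2. Each run covers the 250 bases before the start, 5′ to 3′ on the gene's strand, and capitals mark the letters GGAAA or, on the other strand, TTTCC, the core that NFAT proteins recognise.

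Itpkb, chr1:180330226-180330475, plus strand: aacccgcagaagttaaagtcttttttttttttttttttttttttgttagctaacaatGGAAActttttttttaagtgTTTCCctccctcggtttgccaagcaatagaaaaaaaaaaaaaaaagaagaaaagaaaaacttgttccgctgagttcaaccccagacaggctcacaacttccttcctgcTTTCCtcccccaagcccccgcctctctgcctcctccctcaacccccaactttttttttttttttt

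Plcg2, chr8:117498025-117498274, plus strand: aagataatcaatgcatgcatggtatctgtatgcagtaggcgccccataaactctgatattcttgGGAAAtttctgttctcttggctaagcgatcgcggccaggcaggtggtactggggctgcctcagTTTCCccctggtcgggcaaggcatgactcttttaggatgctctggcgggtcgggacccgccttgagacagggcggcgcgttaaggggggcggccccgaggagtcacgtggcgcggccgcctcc

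The Itpkb window held the core at 3 places, beginning 193, 173 and 65 bases before the start, and the Plcg2 window at 2 places, beginning 186 and 123 bases before it. Of the 7 windows of listed genes 3 held it, the third being 1 of the 2 windows of Atp2b1, beside 55.6% of all 32851 windows of this length. The AP-1 motif TGANTCA was in none of the 7, beside 6.75% of all windows. The PU.1 core GAGGAA, counted on both strands, was in 1, that of Itpkb, where it overlaps the NFAT core nearest the start, beside 23.3% of all windows. These matches describe letters and not binding.

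**Figure D1:**
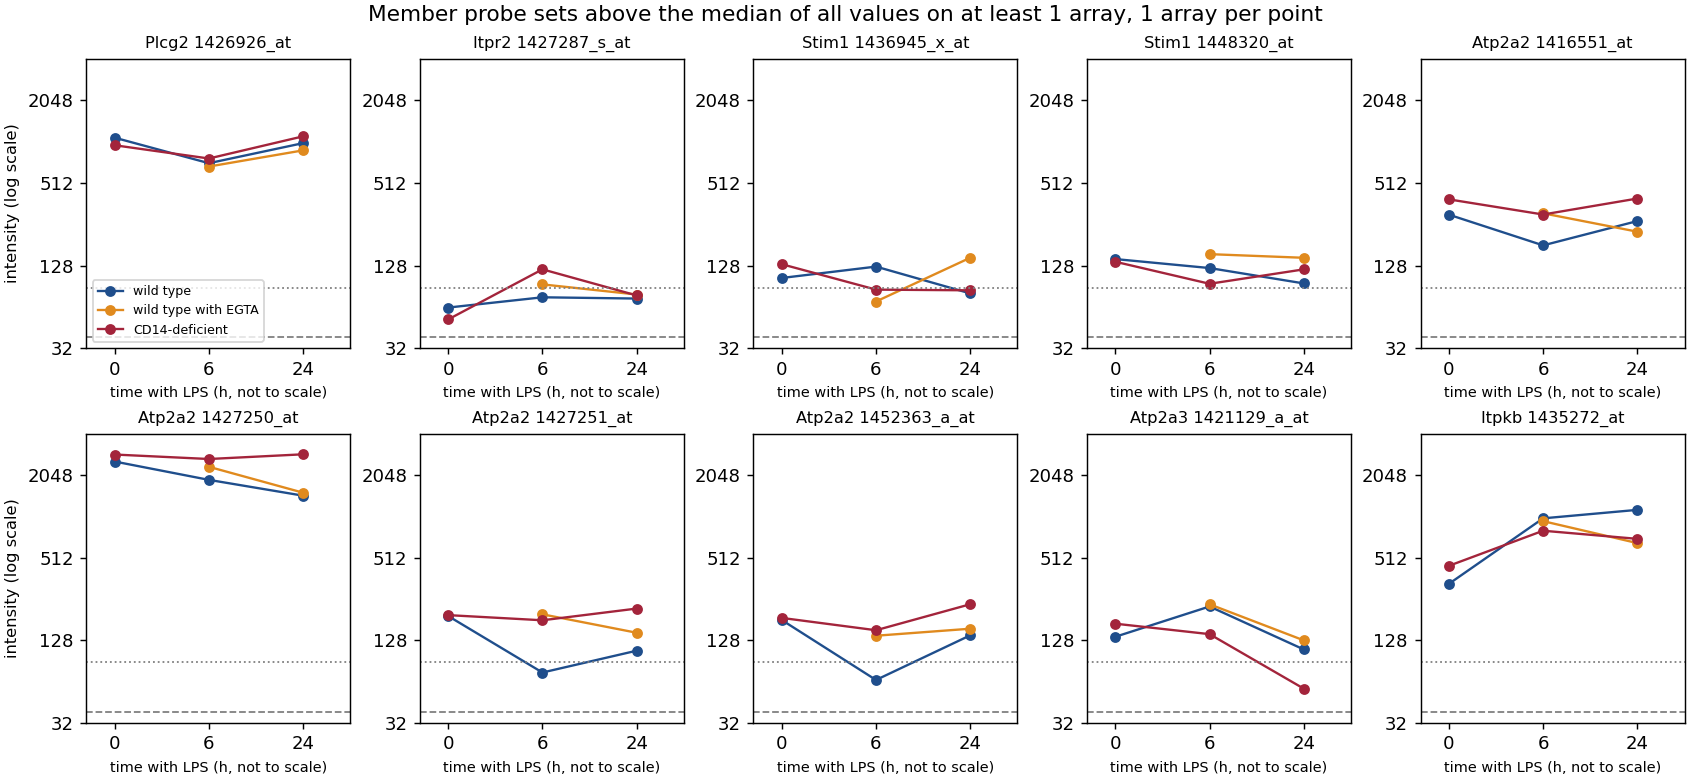
Intensity (log scale) of the 10 member probe sets above the median of all values on at least 1 array, against time with LPS, with 1 array per point and lines joining the arrays of wild type, wild type with EGTA and CD14-deficient cells. The dotted line is the median of all values, 88.2, and the dashed line the floor, 38.4. Itpkb is higher on all 6 LPS arrays than on both unstimulated arrays, an order not counted over all probe sets. In the panels of Atp2a2 1427251_at and 1452363_a_at the wild-type array at 6 h is the lowest.

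Plcg2, which encodes phospholipase C gamma 2, the enzyme that makes IP3, was measured well above the median on every array and varied little. Without stimulus the wild-type array read 1095, against 713 and 999.5 at 6 h and 24 h of LPS, 675 and 885 with EGTA at these times, and 964, 772 and 1120.4 in CD14-deficient cells at 0, 6 and 24 h. All 3 arrays taken at 6 h were lower than all arrays of the other times. The share of all probe sets with this order was not counted. The log2 difference at 6 h was -0.62 in wild type and -0.32 in CD14-deficient cells, and at 24 h -0.13 and 0.22. Between genotypes the differences were -0.18, 0.11 and 0.16 at 0, 6 and 24 h, and with EGTA -0.08 and -0.18 at 6 and 24 h.

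Of the IP3 receptor genes, which form the release channel of the store, Itpr2 was dim. Probe set 1421678_at was at the floor on all 8 arrays, 1424833_at on 6 and 1427693_at on 2, and 1424834_s_at lay between 42.5 and 72.6. The brightest, 1427287_s_at, had 63.2, 75.1 and 73.6 in wild type at 0, 6 and 24 h, 93.3 and 78.7 with EGTA at 6 and 24 h, and 51.8, 120.1 and 77.5 in CD14-deficient cells at 0, 6 and 24 h. The CD14-deficient array at 6 h was the highest, and only it and the EGTA array at 6 h exceeded the median of all values. Its difference from unstimulated CD14-deficient cells was 2.32-fold, the one call for this gene, and it rests on dim values. It was lost with intensities as deposited, at 0.71 in log2, where the median of all probe sets stood at -0.46. It was also lost as the mean over the gene's probe sets, at 0.30. That mean includes 1421678_at, whose difference the floor fixed at 0, and other probe sets at or near the floor. Over the same step 1424834_s_at read 67.8 and then 62.6. In Affymetrix naming the ending _s_at marks probes that can match transcripts of more than 1 gene. No Itpr2 probe set exceeded the median of all values on every array.

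Stim1, which encodes the sensor that opens the entry channel when the store is empty, had intensities close to the median of all values. Probe set 1448320_at read 143, 123 and 94.8 in wild type at 0, 6 and 24 h, 155 and 146 with EGTA at 6 and 24 h, and 136 (before LPS), 94.3 (6 h) and 120.1 (24 h) in CD14-deficient cells. The EGTA arrays were the 2 highest. Probe set 1436945_x_at read 104, 126 and 80.1 in wild type, 70.0 and 146 with EGTA, and 131, 85.4 and 84.4 in CD14-deficient cells. Here EGTA at 6 h was the lowest array and EGTA at 24 h the highest, so the probe sets went opposite ways with EGTA at 6 h, at 0.34 and -0.85 in log2, and the same way at 24 h, at 0.62 and 0.87. The ending _x_at marks probes that may match other sequences. No Stim1 difference reached 2-fold in any of the 9 comparisons after quantile normalization.

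Atp2a2 encodes SERCA2, the pump that refills the endoplasmic reticulum in most cells. Its probe sets gave most of the calls. All 4 read lower in wild-type cells at 6 h of LPS than in every CD14-deficient array and than with EGTA at 6 h. How many of all probe sets have this order was not counted. The 4 probe sets measure the same gene and share the same low array, so they do not count as independent results. The brightest, 1427250_at, read 2567, 1886 and 1446 in wild type at 0, 6 and 24 h, 2349 and 1519.9 with EGTA at 6 and 24 h, and 2886, 2677 and 2897 in CD14-deficient cells at 0, 6 and 24 h. The 3 CD14-deficient arrays were the highest and did not overlap with the 5 wild-type arrays. The same held for 2.56% of all 12789 probe sets above the median on some array and for none of the other 3 Atp2a2 probe sets. The low end was held by both wild-type arrays of 24 h, with and without EGTA.

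Probe set 1427251_at of Atp2a2 read 192, 74.3 and 107 in wild type, 197 and 145 with EGTA, and 195, 179 and 217 in CD14-deficient cells, in the same order of times. Probe set 1452363_a_at read 179.6, 65.6 and 139 in wild type, 138 and 155 with EGTA, and 186, 151 and 234 in CD14-deficient cells. In both the wild-type array at 6 h of LPS was the lowest and under the median of all values. Probe set 1416551_at read 301, 179.6 and 270.2 in wild type, 308 and 226 with EGTA, and 389, 302 and 394 in CD14-deficient cells, again with the wild-type array at 6 h lowest. This array was thus lowest in 3 of the 4 probe sets, as it was in 11.9% of the 12789 probe sets above the median on some array. CD14-deficient cells at 24 h were highest in 4 of 4, as in 10.8% of all.

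With LPS at 6 h in wild type, 2 Atp2a2 probe sets were called lower, 1427251_at 2.58-fold and 1452363_a_at 2.74-fold, while 1416551_at and 1427250_at stood at -0.74 and -0.44 in log2. In CD14-deficient cells the same step gave -0.12, -0.30, -0.37 and -0.11 for these probe sets. At 24 h the wild-type differences lay between -0.84 and -0.15 and the CD14-deficient ones between 0.01 and 0.33. Without stimulus the genotypes differed by 0.02 to 0.37.

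CD14-deficient cells at 6 h of LPS had 2.40-fold and 2.30-fold higher Atp2a2 than wild type by 1427251_at and 1452363_a_at, and log2 differences of 0.75 and 0.51 by 1416551_at and 1427250_at. At 24 h 1427251_at was 2.03-fold and 1427250_at 2.00-fold higher, just past the fold needed, and the other two stood at 0.55 and 0.75. With EGTA at 6 h 1427251_at was 2.66-fold and 1452363_a_at 2.10-fold higher than with LPS alone, and 1416551_at and 1427250_at stood at 0.78 and 0.32. With EGTA at 24 h the 4 differences ran from -0.26 to 0.43, and none was called.

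The comparisons of EGTA and of CD14 deficiency at 6 h share the wild-type LPS array, which is also the array of the 6 h response in wild type. Set against each other, EGTA and CD14-deficient cells at 6 h of LPS differed in Atp2a2 by log2 values of 0.03, -0.19, 0.14 and -0.13 (EGTA minus CD14-deficient, for 1416551_at, 1427250_at, 1427251_at and 1452363_a_at). All Atp2a2 calls at 6 h thus rest on that 1 array. With intensities as deposited, where the median of all probe sets stands at -0.79 for EGTA at 6 h, the EGTA differences of the 4 probe sets were 0.00, -0.44, 0.58 and 0.23, none of them 2-fold, and above that median by 0.79, 0.35, 1.36 and 1.02. Calr, which encodes the calcium-binding chaperone calreticulin of the same store, was chosen after its values were seen. By its brightest probe set, 1417606_a_at, it read 7427 in wild type before LPS and 5149.9 at 6 h. It read 6961 with EGTA at 6 h and 5632 in CD14-deficient cells at 6 h, with no call. Its probe set 1433806_x_at stood at -1.10 in log2 after 6 h of LPS in wild type. The listed genes Canx, Calu and Sdf4 were also chosen after their values were seen. For the same step their brightest probe sets stood at -0.11, -0.001 and -0.14 in log2. With EGTA at 6 h they stood at 0.01, -0.002 and 0.14.

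**Figure D2:**
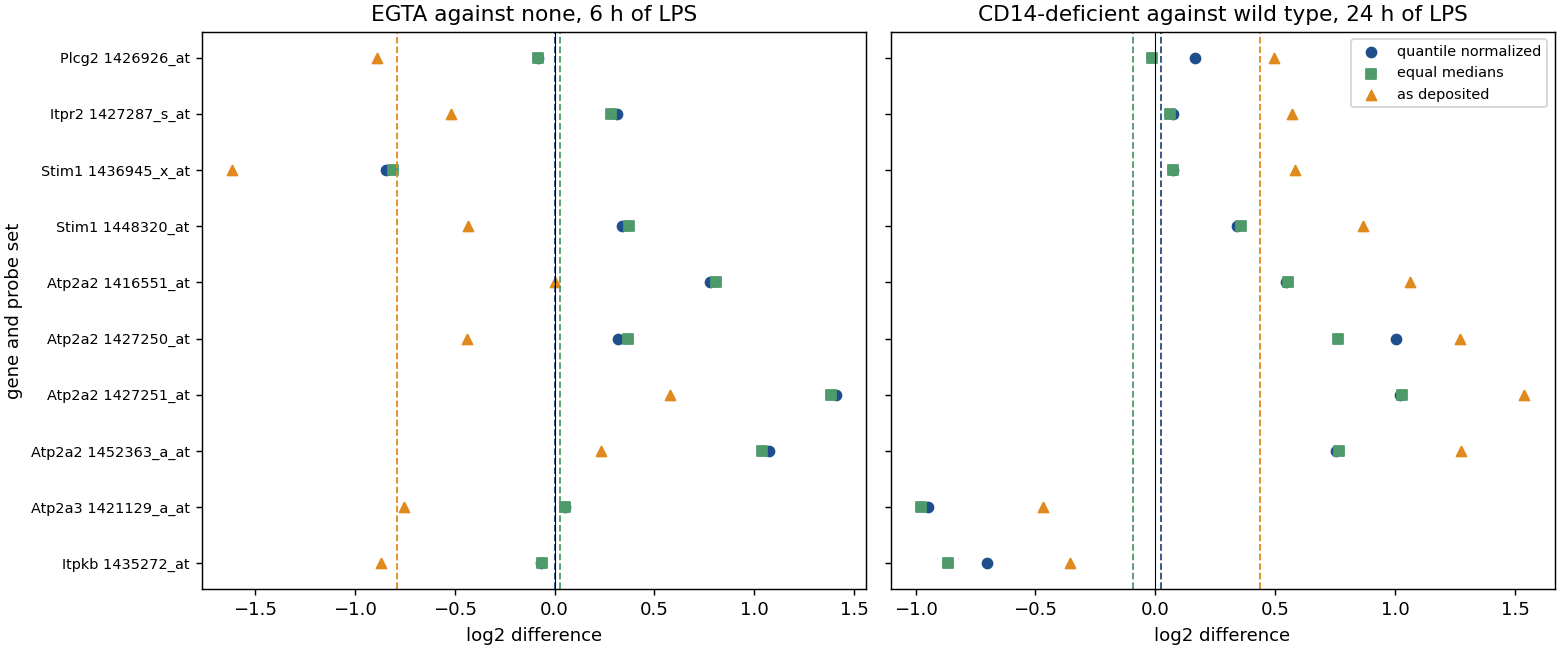
Log2 difference (x axis) of the 10 member probe sets for EGTA against none at 6 h of LPS and for CD14-deficient against wild-type cells at 24 h, under quantile normalization (circles), equal medians (squares) and as deposited (triangles). Dashed lines in the same colours mark the median of all probe sets compared, and the 4 Atp2a2 probe sets lie to the right of it under each scaling in both panels.

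Atp2a3 encodes SERCA3, a store pump best known from blood cells. Probe set 1421129_a_at read 135, 225 and 109 in wild type at 0, 6 and 24 h, 234 and 127 (6 and 24 h) with EGTA, and 169, 142 and 56.7 in CD14-deficient cells at 0, 6 and 24 h. The wild-type arrays at 6 h, with and without EGTA, were the highest and the CD14-deficient array at 24 h the lowest. That array was 2.98-fold lower than unstimulated CD14-deficient cells, the one call for this gene, where wild type stood at -0.31 in log2. As the mean over both probe sets the call was lost, at -0.80, and wild type stood at 0.14. In CD14-deficient cells the floor held the difference of the other probe set at -0.04, so that loss was largely set by the floor. At 6 h wild type stood at 0.73 and CD14-deficient cells at -0.25. Between genotypes the difference was -0.67 at 6 h and -0.95 at 24 h. The other probe set, 1450124_a_at, never exceeded the median of all values, running from 22.7 to 82.3, with its lowest value also in CD14-deficient cells at 24 h. The genotype difference at 24 h thus had opposite signs for the pump genes, -0.95 for Atp2a3 and 0.55 to 1.02 for Atp2a2.

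Itpkb encodes the kinase that phosphorylates IP3 and so ends its action on the release channel. Its probe set, 1435272_at, read 329, 989 and 1140.1 in wild type at 0, 6 and 24 h, 943 and 652 with EGTA at 6 and 24 h, and 445, 803 and 701 in CD14-deficient cells at 0, 6 and 24 h. Both unstimulated arrays were lower than all 6 LPS arrays, an order whose share over all probe sets was not counted. In wild type it was 3.01-fold higher at 6 h and 3.47-fold at 24 h. In CD14-deficient cells it stood at 0.85 and 0.65 in log2, under 2-fold. With EGTA it stood at -0.07 at 6 h and -0.81 at 24 h, and with CD14 deficiency at 0.44 before LPS, -0.30 at 6 h and -0.70 at 24 h, so none of these reached 2-fold. The array with EGTA at 24 h also had the lowest cRNA yield of the 8, whose part was not tested.

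**Figure D3:**
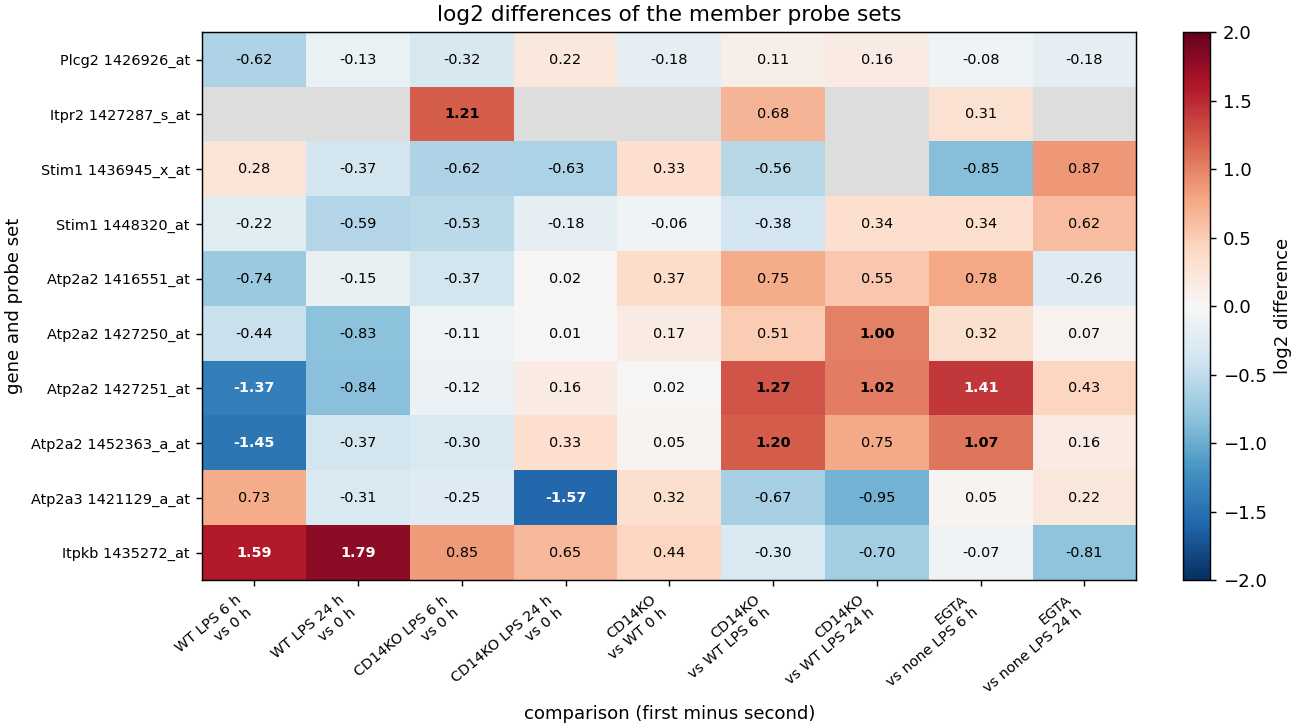
Log2 differences (first minus second array) of the 10 member probe sets in the 9 comparisons, with red for higher and blue for lower in the first array, bold where at least 2-fold, and grey where neither array exceeded the median of all values. The calls lie in Atp2a2 (8 cells), Itpkb (2 cells), Itpr2 and Atp2a3 (1 cell each).

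Counted over all member probe sets, calls came to at most 3 in a comparison. In wild type 3 of 9 compared differed at least 2-fold after 6 h of LPS, beside 20.3% of all probe sets, and 1 of 9 after 24 h, beside 21.4%. In CD14-deficient cells 1 of 10 differed at 6 h, beside 19.3%, and 1 of 9 at 24 h, beside 16.4%. Between genotypes 0 of 9 differed before LPS, beside 4.54%, 2 of 10 at 6 h, beside 5.76%, and 2 of 8 at 24 h, beside 11.4%. With EGTA 2 of 10 differed at 6 h, beside 1.01%, and 0 of 9 at 24 h, beside 2.12%. All calls between genotypes and with EGTA were Atp2a2, whose probe sets measure 1 gene. The median log2 difference of the members compared, 4 of which are Atp2a2, was -0.44 and -0.37 after 6 h and 24 h of LPS in wild type, beside -0.10 and -0.07 for all probe sets. In CD14-deficient cells it was -0.28 and 0.02 at these times, beside -0.12 and -0.05. Between genotypes it was 0.17, 0.31 and 0.44 at 0, 6 and 24 h, beside 0.03, 0.02 and 0.02, and with EGTA 0.31 and 0.16 at 6 and 24 h, beside 0.00 at either time.

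A limma fit over all 8 arrays, with additive terms for time, CD14 deficiency and EGTA, was the one test the design allowed. With 3 residual degrees of freedom, its error reflects how far the arrays depart from additive effects, not how cultures vary. Of 10 member probe sets tested, Itpkb alone passed an adjusted p of 0.05 for LPS. It rose by 1.31 ± 0.27 (log2, SE) at 6 h, with a limma adjusted p of 0.015, and by 1.13 ± 0.27 at 24 h, with a limma adjusted p of 0.024, averaged over conditions. The calls over all probe sets were 28.2% at 6 h and 29.1% at 24 h. The 6 h call was lost without the unstimulated wild-type array (limma adjusted p of 0.098) or the wild-type LPS array at 6 h (0.064), and the 24 h call without the unstimulated wild-type array (0.15) or the wild-type LPS array at 24 h (0.11).

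For CD14 deficiency, averaged over 0, 6 and 24 h, the 4 Atp2a2 probe sets had coefficients of 0.55 ± 0.22, 0.56 ± 0.18, 0.77 ± 0.29 and 0.67 ± 0.26 (log2, SE). Their unadjusted limma p lay between 0.020 and 0.039, and the adjusted p between 0.18 and 0.23, so no member passed, beside 1.09% of all probe sets. For EGTA the limma fit called no probe set of any gene after adjustment (0%), while 711 of 12789 had an unadjusted p under 0.05, none of them a member. The largest EGTA coefficient of a member was 0.73 ± 0.34 for Atp2a2 1427251_at, with a limma adjusted p of 0.92.

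The pathway list held 66 other genes of calcium release, entry, storage and IP3 metabolism, of which 47 had a probe set and 19 were not analysed here. Each is described by its brightest probe set. The ryanodine receptor genes Ryr1 and Ryr3, the phospholipase C genes Plcg1, Plcb1 and Plcb4, the IP3 kinase gene Itpka, the plasma membrane pump gene Atp2b2, the SERCA regulators Pln and Sln, and Trpc1 were at the floor on all 8 arrays, 10 genes in all. In wild type 3 of 32 compared were at least 2-fold higher and 3 lower at 6 h of LPS, and 4 and 2 of 31 at 24 h. In CD14-deficient cells the numbers were 4 and 4 of 32 at 6 h, then 3 and 2 of 33 at 24 h. Between genotypes they were 0 and 0 of 31 before LPS, 0 and 2 of 31 at 6 h, and 1 and 3 of 32 at 24 h. The nearest background shares are those given for the members, which cover all probe sets in either direction. No share was counted over the brightest probe set of each gene.

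Among genes of IP3 turnover, Inpp1, a phosphatase of inositol phosphates, read 110.3, 729.6 and 508.0 in wild type at 0, 6 and 24 h and 93.4, 228.0 and 98.0 in CD14-deficient cells. It was 6.62-fold and 4.61-fold higher after LPS in wild type, and 2.44-fold higher in CD14-deficient cells at 6 h. Against wild type the CD14-deficient arrays were 3.20-fold lower at 6 h and 5.18-fold lower at 24 h. Plcl2, a phospholipase C-like protein without catalytic activity that binds IP3, was 3.83-fold and 4.15-fold higher after LPS in wild type and 2.56-fold higher at 6 h in CD14-deficient cells. Between genotypes it was 2.29-fold and 3.66-fold lower without CD14 at 6 and 24 h. Inpp5d, which encodes the lipid phosphatase SHIP1, was lower at 6 h in wild type (4.76-fold) and in CD14-deficient cells (3.36-fold).

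Of the kinases upstream, Syk was 2.96-fold and 2.28-fold higher at 6 and 24 h in CD14-deficient cells. In wild type this probe set stood at 0.69 and 0.97 in log2, and the other Syk probe sets at 1.08 and 1.23 at 24 h. Tec, a kinase that acts beside PLCg2, was 3.40-fold lower at 6 h than before LPS in CD14-deficient cells, where wild type stood at -0.59 in log2. Between genotypes Tec stood at 0.57 before LPS and -0.61 at 6 h, with no call. Of the calcium-dependent kinases of the Camk family, Camk2g was 3.09-fold and 2.63-fold lower at 6 h in wild type and CD14-deficient cells, Camkk2 2.22-fold and 2.75-fold higher, and Camk1 2.68-fold and 2.26-fold lower at 24 h. Camk1d was lower after LPS, by 2.26-fold and 2.72-fold at 6 and 24 h in wild type and 2.05-fold at 6 h in CD14-deficient cells. It was 2.74-fold higher in CD14-deficient than in wild-type cells at 24 h.

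Of genes for channels and exchangers, Orai1, the entry channel that STIM1 opens, had no call and is given as the partner of Stim1, chosen after its values were seen. By its brightest probe set, 1424990_at, it read 622, 358 and 776 in wild type and 260.4 and 591 with EGTA. In CD14-deficient cells it read 708, 512 and 778, and it was lowest at 6 h in each series. The other, 1424989_at, read 118, 123 and 162 in wild type, 83.1 and 114 with EGTA, and 114, 141 and 170 in CD14-deficient cells. That probe set was lowest at 0 h in wild type without EGTA and in CD14-deficient cells, and at 6 h with EGTA. Slc8b1, the mitochondrial sodium-calcium exchanger, was 2.68-fold higher at 24 h in wild type. Stimate, a partner of STIM1, was 2.87-fold higher there and 2.21-fold higher in CD14-deficient cells. At 24 h in CD14-deficient cells P2rx4, an ATP-gated channel, was 2.07-fold higher than before LPS, and Slc24a3, a sodium-calcium-potassium exchanger, 3.48-fold lower. In wild type the same step stood at 0.62 and -0.08 in log2. P2rx4 read 3921 in CD14-deficient and 4877 in wild-type cells at 24 h, and its other probe set had no call. Itpr3, the third IP3 receptor gene, was 2.20-fold lower in CD14-deficient than in wild-type cells at 24 h. With EGTA 0 of 31 differed at 6 h and 1 of 31 at 24 h, where Letm1, a mitochondrial inner membrane protein, was 2.05-fold lower.

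**Figure D4:**
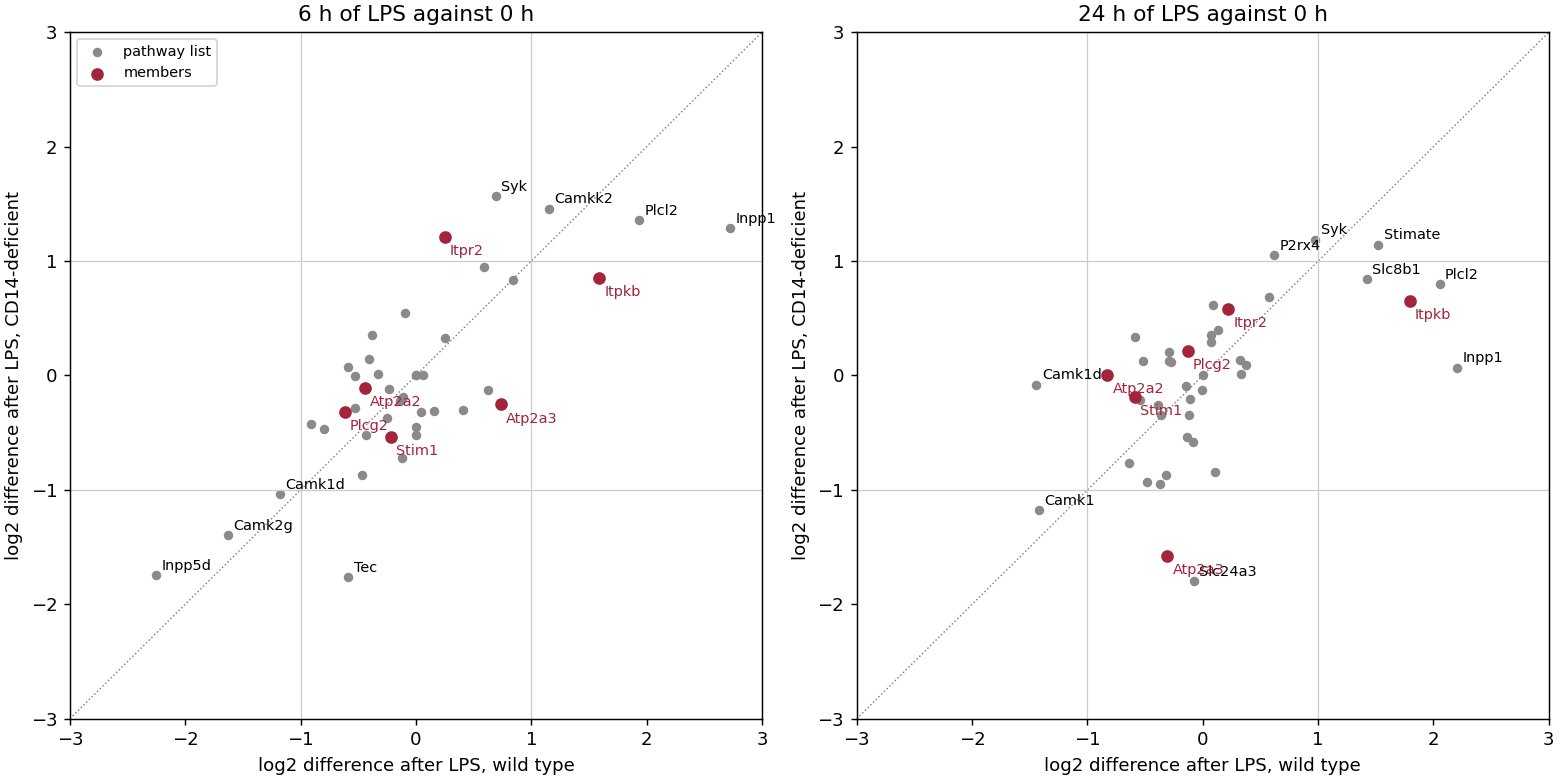
Log2 difference after LPS in wild type (x axis) and in CD14-deficient cells (y axis) at 6 h and 24 h, for the brightest probe set of each gene of the pathway list not at the floor on all arrays (grey, named where at least 2-fold in either genotype) and of the 6 members (red). The dotted line marks equal differences and thin lines a 2-fold change. Inpp1, Plcl2 and Itpkb lie below the dotted line on the right at both times.

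Of the genes with the most similar pattern over the 8 arrays, among 3370 whose probe set also spanned at least 1 in log2, Zfp281, Timp1 and Ptcd1 were nearest to Itpkb, with a Pearson r of 0.954, 0.950 and 0.948. Gpam, Sec24d and Npepl1 were nearest to Atp2a2, at 0.973, 0.968 and 0.963. Nedd4l, Cibar1 and Vrk1 were nearest to Atp2a3, at 0.976, 0.969 and 0.956, and Icosl, Sqstm1 and Abr to Itpr2, at 0.959, 0.927 and 0.922. With 8 points and this many genes, high values are easily reached. In RNA of whole cultures, a smaller share of cells with a message and less of it per cell cannot be told apart.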

How the data were processed

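RNA of 8 samples was measured on 8 arrays. The deposited values are linear intensities per probe set, which the authors made with MAS5 per the submitters' processing notes. Scaling to a common target and detection calls are not given in the sources used here. Trimmed means (2% off each end) of the arrays ran from 314 to 527, a ratio of 1.68 that exceeded the 10% allowed, so intensities were quantile normalized, raised to a floor at the 40th percentile and log2 was taken. A real change of most genes in 1 direction would be lost by this step. Of the probe sets, 20393 had 1 gene, 691 several and 1606 were not listed. Symbols were updated through RefSeq (GRCm38.p6), by gene identifier for 20364 of them. The 64 array controls were left out of counts. All 9 comparisons cover all other probe sets. The additive fit used limma 3.58.1 (lmFit, eBayes with trend) in R 4.3.3 on 12789 probe sets above the median on at least 1 array, with Benjamini-Hochberg adjustment over all of them, and was tested on simulated data. The members and lists were chosen with earlier results of these data known. Named were all members, Cd14, and listed pathway genes whose brightest probe set was called in any comparison. Also named by rule were the 3 genes most like each member whose brightest probe set spanned at least 1 in log2. Orai1, Calr, Canx, Calu and Sdf4 fall outside this rule, as do listed genes at the floor on all arrays. Each probe set was compared on its own, with the mean over a gene's probe sets as an alternative. The number of arrays limits the precision.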

Additional observations from a re-analysis of the deposited data

How the results depend on the processing

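The count of members at least 2-fold different was recomputed with intensities as deposited, arrays scaled to equal medians, a floor at the 20th percentile, and a brighter array above the 75th percentile. The lower floor changed no count. As deposited, 8 members in place of 1 differed at 24 h of LPS in wild type. The median of all probe sets lay at -0.66 there. At 6 h in CD14-deficient cells, where that median lay at -0.46, 2 in place of 1 differed. Both were of Stim1, at -1.15 and -1.07, or -0.69 and -0.61 relative to the median. Itpr2 was no longer called, though it lay 1.17 above that median. Between genotypes 1 in place of 2 differed at 6 h, with the median at -0.26. At 24 h 4 in place of 2 did, with the median at 0.44. With EGTA 1 in place of 2 differed at 6 h, with the median at -0.79. It was Stim1 1436945_x_at, at -1.61, in place of Atp2a2. With EGTA at 24 h 1 in place of 0 differed. With equal medians 2 differed at 6 h in CD14-deficient cells, where Itpkb stood at 1.01, and 1 between genotypes at 24 h, where Atp2a2 1427250_at stood at 0.76. Under the 75th percentile fewer probe sets are compared: 1 differed at 6 h in wild type, 0 at 6 h and 24 h in CD14-deficient cells, 0 and 1 between genotypes at 6 h and 24 h, and 0 with EGTA at 6 h. Under these 4 settings no called member difference changed sign. As the mean over a gene's probe sets, the calls of Itpr2 at 6 h and Atp2a3 at 24 h in CD14-deficient cells were lost. For these genes the mean includes probe sets held at the floor, which draws it towards 0. The Atp2a2 calls between genotypes at 24 h were lost too, at 0.83. The Atp2a2 mean was also under 2-fold between genotypes at 6 h and with EGTA at 6 h, so the calls there were lost as well. By this mean Atp2a2 was called lower in wild type at 6 h, just past the fold needed, and Atp2a3 between genotypes at 24 h, at -1.03. That Atp2a3 call rests on 1450124_a_at, at -1.10, which exceeded the median of all values on neither array and was at the floor in CD14-deficient cells. Its other probe set, 1421129_a_at, stood at -0.95.

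In the additive fit, no planned setting changed the count of members called. Leaving out each array in turn, chosen after seeing the data, gave 0 to 2 members for LPS at 6 h and 0 to 2 for 24 h, and none for CD14 deficiency or EGTA. Without the CD14-deficient array at 24 h, Plcg2 at 6 h and Atp2a2 1427250_at at 24 h passed too, and without the unstimulated wild-type array Atp2a3 1421129_a_at passed at 24 h in place of Itpkb. The Itpr2 probe sets have values close to the floor, and their detection was not tested.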
